A study of Mus musculus with 6 samples.

Results

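Cell cycle genes were followed in monocytes sorted from B16F10 mouse melanoma tumours, as the 42 rows of the deposited count table whose gene name is on a list of 20 genes of DNA replication (S phase) and 22 genes of mitosis, out of 56980 genes in the table. All 42 passed the filter on low counts, as did 16010 genes in all, and each of the 42 had at least 54 counts in every library. The 6 libraries were 3 from tumours given lipid nanoparticles (LNP) carrying GFP mRNA (LNP-GFP, the control) and 3 from tumours given nanoparticles carrying Gsdme mRNA (LNP-Gsdme). Gsdme encodes gasdermin E, a protein that forms pores in the cell membrane once cleaved. All 6 libraries are labelled with genotype WT, and the sort gate was CD11b+, Ly6C-high, Ly6G-. The series' design text names the tumour model as B16F10-mCherry. The sources used here give no mouse strain, age, dose or time after treatment. Nothing in the labels says that the libraries of a group came from separate animals, so the p-values measure the spread between these libraries, which may be technical.

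Cells copy their DNA in S phase and divide in mitosis, and the genes for each step are switched on in separate waves. Before S phase, E2F transcription factors are released from the retinoblastoma protein and turn on the genes for the MCM helicase, the sliding clamp, the polymerases and the enzymes that make deoxynucleotides. Later, in G2 and mitosis, the MuvB complex with B-MYB and FOXM1 turns on cyclin B, mitotic kinases, spindle proteins and the anaphase-promoting complex, often through a promoter element called the CHR. Ly6C-high monocytes arise from dividing precursors in the bone marrow, enter tumours from the blood and can become macrophages there. In cells at rest, both waves are low, and CDK inhibitors such as p21 hold the kinases in check.

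The promoters are shown because many, though not all, carry the E2F or CHR letters of these 2 waves. RefSeq promoter windows of 300 bases (250 before the gene's start to 50 after it, GRCm38.p6) were found for 36 of the 42 genes, of which Mcm7 and Uhrf1 had more than 1 window. Both strands were searched for E2F letters (TTCCCGC or TTCGCGC or TTGCCGC or TTGGCGC), for the CHR letters TTTGAA and for the CCAAT letters of the factor NF-Y. An E2F match and a CCAAT match can share bases, though not in the windows printed here. Sequences are given 5′ to 3′ on the gene's strand with matches on either strand in capitals. Mki67 and Cdc20 are the mitotic genes that changed, and Cdt1 and Rrm2 are the S phase genes with the smallest p-values.
Mki67: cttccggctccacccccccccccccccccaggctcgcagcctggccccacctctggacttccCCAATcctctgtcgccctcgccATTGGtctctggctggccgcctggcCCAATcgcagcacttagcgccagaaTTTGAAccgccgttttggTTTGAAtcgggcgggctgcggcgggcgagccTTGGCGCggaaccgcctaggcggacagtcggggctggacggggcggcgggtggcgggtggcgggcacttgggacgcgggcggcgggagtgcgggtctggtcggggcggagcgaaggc
Cdc20: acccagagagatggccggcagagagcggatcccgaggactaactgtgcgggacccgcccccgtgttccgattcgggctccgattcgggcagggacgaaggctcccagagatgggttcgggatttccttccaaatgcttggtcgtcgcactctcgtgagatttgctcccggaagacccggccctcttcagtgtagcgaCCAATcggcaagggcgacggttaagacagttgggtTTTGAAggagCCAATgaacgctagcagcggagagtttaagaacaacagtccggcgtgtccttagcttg
Cdt1: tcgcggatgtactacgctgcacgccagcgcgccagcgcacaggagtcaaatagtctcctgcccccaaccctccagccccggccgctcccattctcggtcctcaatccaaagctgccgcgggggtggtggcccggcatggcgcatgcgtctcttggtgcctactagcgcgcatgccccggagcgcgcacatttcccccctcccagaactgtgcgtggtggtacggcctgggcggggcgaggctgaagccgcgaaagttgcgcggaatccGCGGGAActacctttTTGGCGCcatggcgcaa
Rrm2: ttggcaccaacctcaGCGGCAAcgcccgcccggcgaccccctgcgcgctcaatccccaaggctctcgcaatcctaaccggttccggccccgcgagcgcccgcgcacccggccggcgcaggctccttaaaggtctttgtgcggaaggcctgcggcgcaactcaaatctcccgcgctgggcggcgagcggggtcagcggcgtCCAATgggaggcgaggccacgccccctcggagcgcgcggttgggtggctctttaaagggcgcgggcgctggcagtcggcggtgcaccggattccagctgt
The Mki67 window (chr7:135716330-135716629, minus strand) held 2 CHR, 3 CCAAT and 1 E2F matches, and the Cdc20 window (chr4:118437294-118437593, minus strand) held 1 CHR, 2 CCAAT and 0 E2F matches. The Cdt1 window (chr8:122567765-122568064, plus strand) held 2 E2F matches and none of the other letters. The Rrm2 window (chr12:24708004-24708303, plus strand) held 1 E2F and 1 CCAAT match. E2F letters stood in 68.4% of the 19 windows of 17 S phase genes, in 21.1% of the 19 mitotic windows and in 9.57% of all 32851 windows. The CHR letters were more frequent in mitotic than in S phase windows, with 10.5% of S phase windows, 73.7% of mitotic windows and 17.9% of all windows. CCAAT stood in 73.7% of S phase windows and 89.5% of mitotic windows, against 37.4% of all. A match describes these letters only and is no evidence of a bound factor.

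Libraries held 15991826 to 22932095 counts, and the median member had 636 counts per library among S phase genes and 306.5 among mitotic genes. LNP-GFP 3 lay midway between the other 2 controls: a mixture of 48% LNP-GFP 1 and the rest LNP-GFP 2 predicted it with squared residuals 1.96 times the counting noise over 11027 genes, against 3.41 to 7.74 times for the best mixture of any other library. Results are therefore also given without it. Markers of the labelled cell type were abundant: 12 monocyte genes summed to 13504, 13609 and 12832 CPM (counts scaled to the library total) in LNP-GFP. The sums were lower in LNP-Gsdme, at 11697, 12046 and 10113 CPM, without overlap, but this separation depended on Fn1. Each control had 38302 or more Fn1 counts, while no LNP-Gsdme library had more than 13743. With Fn1 left out, the sums of the groups overlap. The list also changed within itself: 4 of 12 rose and 3 fell, beside 6.30% and 5.32% of all tested genes. Among these, Ly6c2, which encodes part of the Ly6C antigen of the gate, rose (log2 fold change 2.66, edgeR adjusted p = 0.00219) and Fn1 fell (-1.95, adjusted p = 0.0126). Ly6g, the antigen that the gate excludes, had 0 to 11 counts, while other neutrophil genes were present, such as S100a9 with 356 to 2540 counts and Mmp8 with 545 to 1362. The part of these changes in the cell cycle genes was not tested. Markers of other cells were present too, and they moved between libraries. In bulk RNA, fewer cells of a type and less RNA per cell cannot be told apart. Mitochondrial transcripts took 2.02 to 2.41% of counts in the controls, against 1.30 to 1.61% in LNP-Gsdme.

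Levels per length (FPKM, counts scaled to gene length and library total) placed replication genes at the top. Pcna, the sliding clamp that holds polymerases on DNA, led with 55.8 ± 1.87 FPKM in LNP-GFP and 57.1 ± 1.51 in LNP-Gsdme (SD, n = 3). It was followed in mean FPKM over all libraries by Mcm4 (16.7 FPKM), Cdt1 (15.4 FPKM), Mcm6 (14.2 FPKM) and Mcm5 (12.1 FPKM). Mki67 was the highest mitotic gene, with 13.7 ± 2.03 FPKM in LNP-GFP and 9.56 ± 0.984 in LNP-Gsdme, ahead of Ccnb2 (9.29 FPKM over all libraries) and Top2a (8.11 FPKM). At the low end stood Ccnb1 (0.691 FPKM), Ccne2 (0.606 FPKM) and Cenpf (0.509 FPKM). The gap between Pcna and Mcm4 was far larger than the SD of either, whereas Mcm4 and Cdt1 differed by less than the SD of Mcm4 in LNP-GFP (3.71 FPKM).

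S phase genes did not pass the test in either direction. Of 20, 0 rose and 0 fell by edgeR's quasi-likelihood test at an adjusted p below 0.05, where 11.6% of all tested genes were called, 6.30% as risen and 5.32% as fallen. At an unadjusted p below 0.05, 1 was higher and 1 lower. The share of all tested genes at that unadjusted threshold is not given here, so such counts cannot show an excess in any list. limma-voom called none of the 20, and DESeq2 called 1 as risen, beside 1527 of all 16010 genes. Their median log2 fold change (LNP-Gsdme over LNP-GFP) was -0.01, the same as over all tested genes, and the 20 values ran from -0.26 to 0.32 with standard errors of 0.07 to 0.24. LNP-Gsdme libraries were all below LNP-GFP for 2 genes, Mcm2 and Rrm2, and all above for 1, Cdt1; over all genes these shares were 18.2% and 19.6%.

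**Figure D1:**
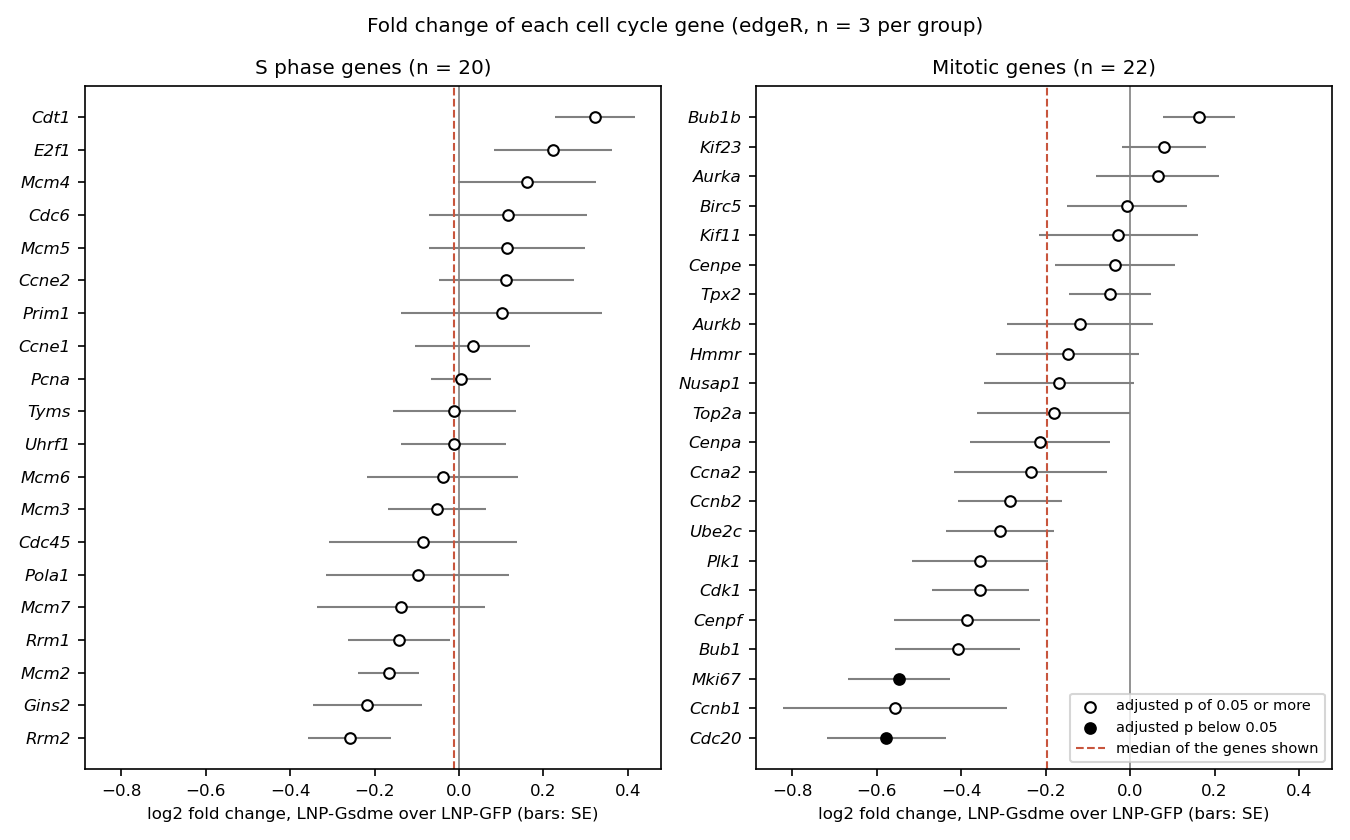
Log2 fold change (x axis, LNP-Gsdme over LNP-GFP) of the 20 S phase genes (left) and the 22 mitotic genes (right) from edgeR with 3 libraries per group, with bars of 1 SE and filled points for an adjusted p below 0.05. The S phase genes lie on both sides of 0 with a median of -0.01. Of the 22 mitotic genes, 19 lie below 0, beside 50.7% of all tested genes, and their median is -0.20.

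Among the genes that load the helicase, Cdt1 had the smallest p of the S phase genes. CDT1 brings the MCM ring to replication origins and is destroyed once S phase starts. The Cdt1 gene (chr8:123294754-123300293, GRCm39) had 65.1, 75.8 and 70.5 CPM in LNP-GFP 1, 2 and 3 and 90.5, 80.1 and 93.6 CPM in LNP-Gsdme 1, 2 and 3. The groups did not overlap, but the log2 fold change of 0.32 ± 0.09 (SE) had an edgeR adjusted p of 0.0709. DESeq2 called it as risen, with an adjusted p of 0.0413, and the adjusted p ran up to 0.281 over the 18 other settings, of which that was the only one to call it. Cdc6, which works beside CDT1 in loading, had a log2 fold change of 0.12 with an adjusted p of 0.698.

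MCM2 to MCM7 form the ring that unwinds DNA, and their 6 genes did not behave alike in the controls. Mcm2 was nearly level among them, at 53.9, 53.1 and 53.9 CPM, and lower in each LNP-Gsdme library, at 46.7, 45.8 and 50.8 CPM. That difference, a log2 fold change of -0.17 ± 0.07, did not pass (edgeR adjusted p = 0.168). Mcm4, in contrast, had 77.9, 49.3 and 62.4 CPM in LNP-GFP 1, 2 and 3 and 73.2, 72.4 and 66.6 CPM in LNP-Gsdme. The LNP-Gsdme libraries all lay between the highest and the lowest control, and the log2 fold change of 0.16 ± 0.16 had an edgeR adjusted p of 0.526. Mcm3, Mcm5, Mcm6 and Mcm7 shared the order LNP-GFP 1 above 3 above 2, and their adjusted p-values were 0.661 to 0.899. Gins2 and Cdc45, partners that turn the MCM ring into an active helicase, had log2 fold changes of -0.22 (adjusted p = 0.294) and -0.09 (0.818). For Gins2 the levels were 12.4, 10.4 and 11.4 CPM against 8.76, 9.86 and 10.8 CPM, which overlap. Gins2 overlaps Gse1, which has 599% of its counts and rose (0.68, edgeR adjusted p = 0.0230), and without a stated strand setting the reads of the pair cannot be told apart.

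Genes of DNA synthesis itself had fold changes near 0. Pcna had 201, 203 and 191 CPM in LNP-GFP and 208, 199 and 189 CPM in LNP-Gsdme, a log2 fold change of 0.00 ± 0.07 (edgeR adjusted p = 0.972). With an SE this small, the range it leaves is narrow compared with that of Prim1 (0.10 ± 0.24) or Pola1 (-0.10 ± 0.22), which encode subunits of the primase and polymerase alpha that start new strands. Uhrf1, which brings the maintenance methyltransferase to newly copied DNA, had a log2 fold change of -0.01 ± 0.12.

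The nucleotide enzymes differed a little more. RRM2 is the regulated subunit of ribonucleotide reductase, which makes deoxynucleotides, and RRM1 is its partner. Rrm2 had 32.7, 35.6 and 31.7 CPM in LNP-GFP and 25.5, 27.4 and 30.6 CPM in LNP-Gsdme. Every LNP-Gsdme library was below every control, with a log2 fold change of -0.26 ± 0.10 that did not pass (edgeR adjusted p = 0.130). Rrm1 had 82.4, 60.3 and 70.8 CPM against 62.0, 63.6 and 67.7 CPM, so its groups overlapped (-0.14 ± 0.12, adjusted p = 0.447). Tyms, the thymidylate synthase, had a log2 fold change of -0.01 ± 0.15.

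Among the genes that drive entry into S phase, E2f1 had 25.2, 17.6 and 20.5 CPM in LNP-GFP and 23.8, 24.2 and 25.9 CPM in LNP-Gsdme. LNP-GFP 1 lay among the LNP-Gsdme libraries and the other 2 controls below them, and the log2 fold change of 0.22 ± 0.14 did not pass (edgeR adjusted p = 0.316). Ccne1 and Ccne2, the E cyclins that start S phase with CDK2, had log2 fold changes of 0.03 and 0.11 (adjusted p = 0.888 and 0.655).

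Of the 22 mitotic genes, 2 fell (Mki67 and Cdc20, 9.09%, beside 5.32% of all tested genes) and 0 rose. By edgeR 0 were higher and 5 lower at an unadjusted p below 0.05, a count given without the share of all tested genes. DESeq2 and limma-voom each called 2 as fallen and none as risen, where they called 1493 and 893 of all 16010 genes as fallen. The median log2 fold change of the 22 genes was -0.20, with values from -0.58 to 0.16 and standard errors of 0.09 to 0.27. In all, 19 were below 0 and 3 above, beside 50.7% of all tested genes below 0. Without LNP-GFP 1 the median of the 22 was -0.054. LNP-Gsdme libraries were all below LNP-GFP for 7 genes, beside 18.2% of all genes, and all above for 1, Bub1b. Members of the list that did not pass are described by their values only.

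**Figure D2:**
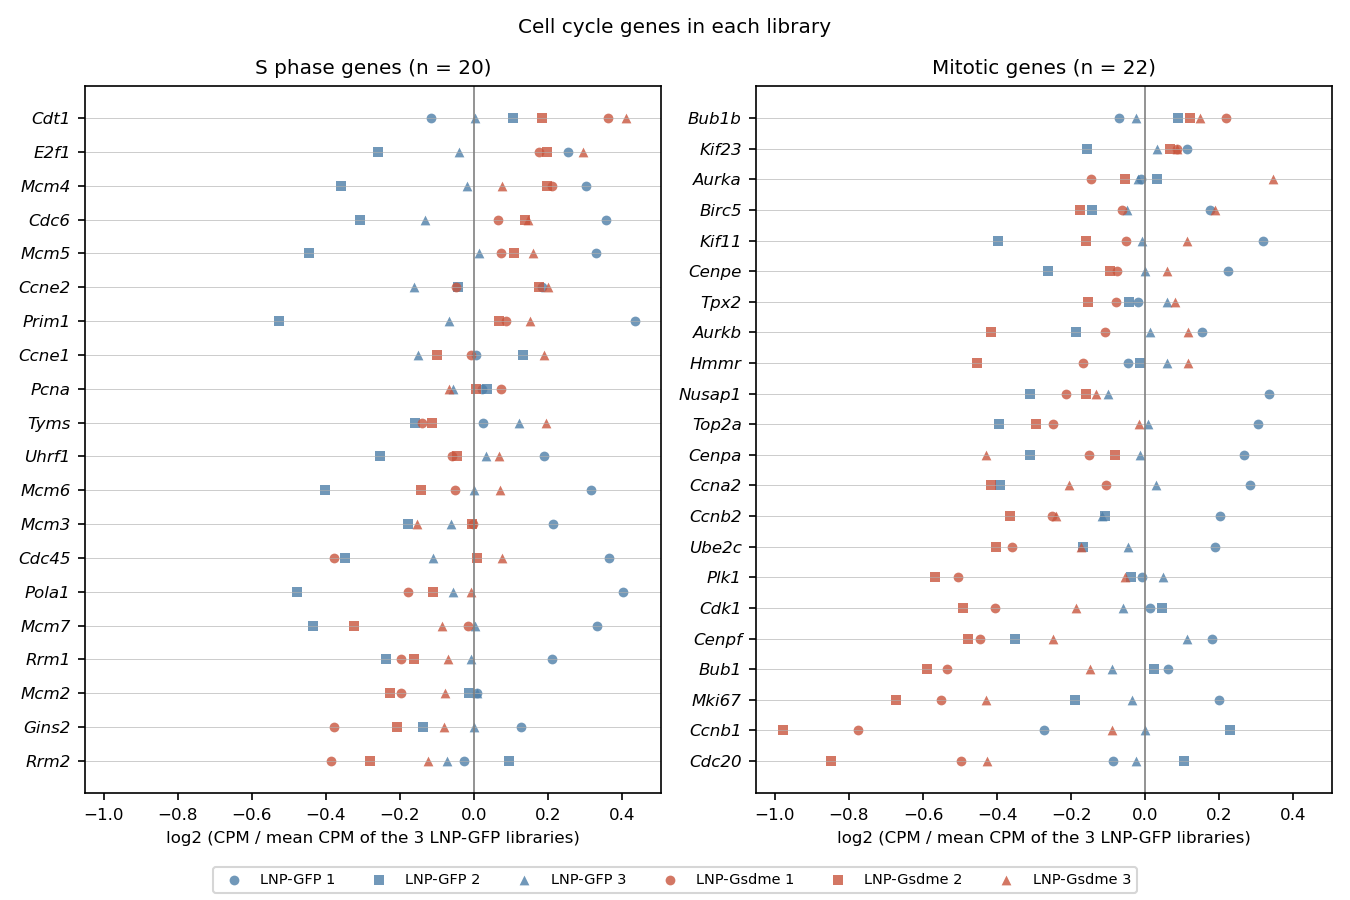
CPM of each cell cycle gene in each of the 6 libraries, as log2 of its ratio to the mean of the 3 LNP-GFP libraries (x axis); blue marks are LNP-GFP, red marks LNP-Gsdme, and the shape gives the replicate number. All LNP-Gsdme marks lie left of all LNP-GFP marks for Mki67 and Cdc20, and the blue circle (LNP-GFP 1) lies farthest right of the 3 blue marks for 15 of 20 S phase genes and 14 of 22 mitotic genes.

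Mki67 encodes Ki-67, the protein that coats mitotic chromosomes and is the usual stain for dividing cells. The gene (chr7:135291513-135318090, GRCm39) had 164 CPM in LNP-GFP 1, 126 CPM in LNP-GFP 2 and 139.7 CPM in LNP-GFP 3, against 97.8, 89.9 and 106 CPM in LNP-Gsdme 1, 2 and 3. Every control was above every LNP-Gsdme library, and the mean fell from 143 ± 19.7 to 98.0 ± 8.24 CPM (SD, n = 3), a log2 fold change of -0.55 ± 0.12 (SE, edgeR adjusted p = 0.0360). Over the 18 other settings the log2 fold change stayed between -0.74 and -0.35, and the adjusted p ran from 0.00148 to 0.148, below 0.05 in 10. The threshold was missed on removal of LNP-GFP 3 (-0.56, adjusted p = 0.135), of LNP-Gsdme 1 (-0.54, 0.128) and of LNP-Gsdme 2 (-0.49, 0.134), and still passed without LNP-GFP 1, LNP-GFP 2 or LNP-Gsdme 3.

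Cdc20 encodes the activator of the anaphase-promoting complex, which marks cyclin B for destruction. The gene (chr4:118290098-118294549, GRCm39) had 13.4, 15.3 and 14.04 CPM in LNP-GFP and 10.1, 7.92 and 10.6 CPM in LNP-Gsdme. The groups did not overlap, and the mean fell from 14.3 ± 0.977 to 9.55 ± 1.43 CPM (SD, n = 3), with a log2 fold change of -0.58 ± 0.14 (SE, edgeR adjusted p = 0.0467). This call stood just below the threshold: removing any of 5 libraries ended it, namely LNP-GFP 1 (adjusted p = 0.0556), LNP-GFP 2 (0.117), LNP-GFP 3 (0.162), LNP-Gsdme 1 (0.128) and LNP-Gsdme 2 (0.129), and the adjusted p over all 18 settings ran from 0.0106 to 0.367. Cdc20 overlaps Elovl1, a fatty acid elongase gene with 454% of its counts and a log2 fold change of 0.20 (adjusted p = 0.376); reads from the shared stretch may have been counted for either gene. Ube2c, the ubiquitin-conjugating enzyme of the same complex, had 20.4, 15.9 and 17.3 CPM in LNP-GFP and 13.9, 13.5 and 15.9 CPM in LNP-Gsdme. LNP-Gsdme 3 was below LNP-GFP 2 by less than the last digit shown, and the log2 fold change of -0.31 ± 0.13 did not pass (adjusted p = 0.158).

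CDK1 with cyclin B is the kinase that starts mitosis. Cdk1 had 15.4, 15.8 and 14.6 CPM in LNP-GFP and 11.5, 10.9 and 13.4 CPM in LNP-Gsdme. The groups did not overlap, and the log2 fold change of -0.36 ± 0.11 had an edgeR adjusted p of 0.0896. Ccnb2, a B cyclin, had 18.0, 14.5 and 14.4 CPM against 13.1, 12.2 and 13.2 CPM, again without overlap (-0.28 ± 0.12, adjusted p = 0.170). Ccnb1, the other B cyclin, was much lower per length and less even, with 5.49, 7.79 and 6.64 CPM against 3.88, 3.37 and 6.24 CPM. LNP-Gsdme 3 lay within the range of the controls, and the log2 fold change of -0.56 ± 0.27 was close to those of Mki67 and Cdc20 in size but had an adjusted p of 0.204. Ccna2, cyclin A, which acts in S phase and G2, had a log2 fold change of -0.24 (adjusted p = 0.405).

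The spindle checkpoint genes did not move alike. BUB1 and BUBR1 are kinetochore proteins that delay anaphase until chromosomes are attached. Bub1 had 12.8, 12.5 and 11.5 CPM in LNP-GFP and 8.48, 8.17 and 11.1 CPM in LNP-Gsdme, with a log2 fold change of -0.41 ± 0.15 (edgeR adjusted p = 0.115). Bub1b, the gene for BUBR1, had 21.5, 24.0 and 22.2 CPM in LNP-GFP and 26.2, 24.5 and 24.99 CPM in LNP-Gsdme, the single mitotic gene with all LNP-Gsdme libraries above the controls (0.16 ± 0.09, adjusted p = 0.239). Cenpf, a large kinetochore protein, had a log2 fold change of -0.39 (adjusted p = 0.179), Cenpa, the centromeric histone, one of -0.21 (0.408) and Cenpe, a kinetochore kinesin, one of -0.04 (0.883).

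Of the mitotic kinases, Plk1 had 10.5, 10.3 and 10.9 CPM in LNP-GFP and 7.42, 7.11 and 10.2 CPM in LNP-Gsdme, without overlap. Its edgeR adjusted p was 0.187. Aurka and Aurkb, which act on spindle poles and on centromeres, had log2 fold changes of 0.07 and -0.12 with adjusted p-values of 0.785 and 0.665. Birc5, or survivin, which works with aurora B, had one of -0.01.

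Leaving out LNP-Gsdme 3 raised the number of mitotic calls from 2 to 5, whereas the median of the group moved more without LNP-GFP 1 (-0.054) or LNP-GFP 2 (-0.33) than without LNP-Gsdme 3 (-0.26). In Bub1, Plk1 and Ccnb1, that library was nearer to the controls than the other 2 LNP-Gsdme libraries. Without it, Bub1 (log2 fold change -0.56, edgeR adjusted p = 0.0400), Plk1 (-0.53, 0.0429) and Ccnb1 (-0.87, 0.0497) fell beside Mki67 and Cdc20. Each of these 3 passed under that 1 setting only.

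Genes for the chromosome and spindle machinery had small fold changes that did not pass. Top2a, the topoisomerase that untangles sister chromatids, had 114, 70.3 and 93.1 CPM in LNP-GFP and 77.9, 75.5 and 91.5 CPM in LNP-Gsdme. All 3 LNP-Gsdme libraries lay within the range of the controls, and the log2 fold change of -0.18 ± 0.18 did not pass (edgeR adjusted p = 0.521). The kinesins Kif11 and Kif23, the spindle assembly factor Tpx2, and Nusap1 and Hmmr, which bind spindle microtubules, had log2 fold changes between -0.17 and 0.08 with adjusted p-values of 0.542 or more.

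Mitotic genes were lower in LNP-Gsdme relative to S phase genes, in each library. Their summed level was 655, 503 and 571 CPM in LNP-GFP 1, 2 and 3 and 479, 454 and 520 CPM in LNP-Gsdme 1, 2 and 3, which overlap at LNP-GFP 2. Summed S phase genes came to 984, 788 and 864 CPM in LNP-GFP and 889, 865 and 901 CPM in LNP-Gsdme, and the LNP-Gsdme libraries all lay within the range of the controls. As a percent of the S phase sum, the mitotic sum was 66.5, 63.9 and 66.1% in LNP-GFP and 53.9, 52.4 and 57.7% in LNP-Gsdme, without overlap. Mki67 alone made part of that difference: without it the values were 49.8, 47.9 and 49.9% against 42.9, 42.04 and 45.9%, and without Mki67 and Cdc20 they were 48.5, 46.0 and 48.3% against 41.8, 41.1 and 44.7%. Without Pcna, the most abundant S phase gene, they were 83.6, 86.0 and 84.8% against 70.4, 68.1 and 73.0%.

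**Figure D3:**
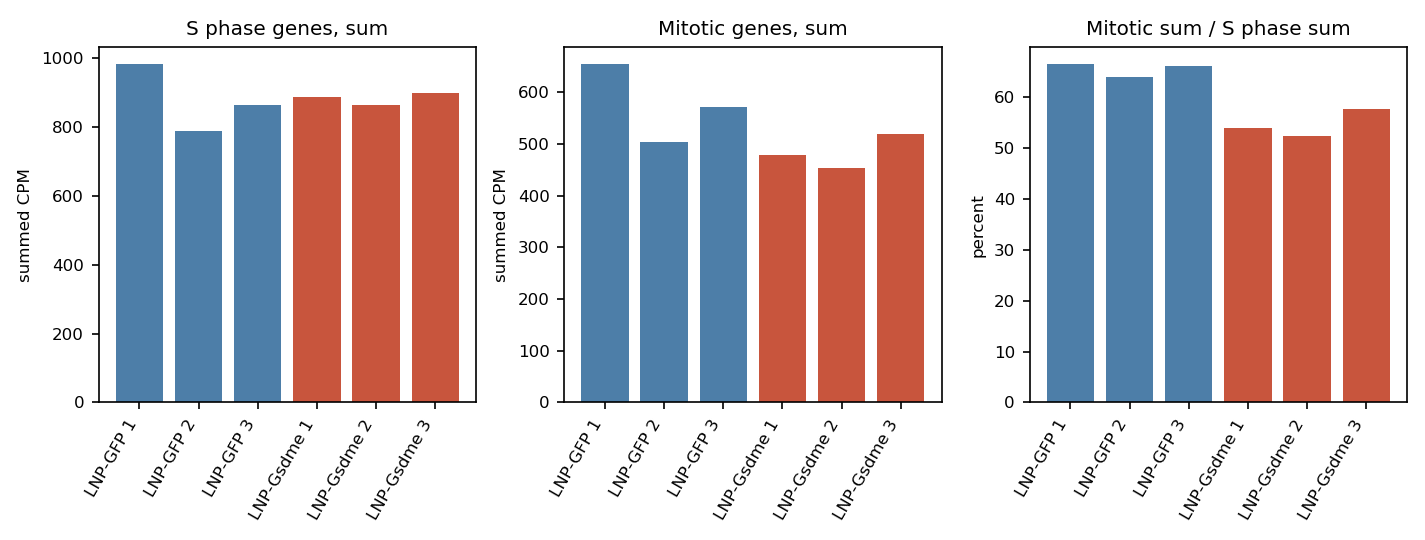
Summed CPM of the 20 S phase genes (left) and the 22 mitotic genes (middle) in each of the 6 libraries, and the mitotic sum as a percent of the S phase sum (right); blue bars are LNP-GFP and red bars LNP-Gsdme. The percent is 63.9 to 66.5 in the 3 LNP-GFP libraries and 52.4 to 57.7 in the 3 LNP-Gsdme libraries, while the S phase sum overlaps between the groups.

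Counted gene by gene, with every gene weighing the same, the contrast was smaller. The median log2 level of the mitotic genes relative to each gene's own mean, minus that of the S phase genes, was 0.00, 0.19 and 0.14 in LNP-GFP and -0.09, -0.22 and -0.02 in LNP-Gsdme. LNP-GFP 1 and LNP-Gsdme 3 were almost level by this measure. The median fold change of mitotic genes minus that of S phase genes was -0.19 on the log2 scale in the full comparison and -0.22 to -0.13 under the 18 other settings. It is a description of chosen lists, and no test was made of it.

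Summed markers of several other cell types were also lower in LNP-Gsdme, though the melanoma and pigment cell sums overlapped between the groups. Conventional dendritic cell genes summed to 303, 471 and 384 CPM in LNP-GFP and 257, 260 and 217 CPM in LNP-Gsdme. By edgeR 3 of these 12 fell and 1 rose, beside 5.32% and 6.30% of all tested genes. DESeq2 called 6 of them as fallen and 1 as risen, where it called 1493 of all 16010 genes as fallen and 1527 as risen. Fibroblast genes summed to 10250 to 11330 CPM across the controls, and LNP-Gsdme 1, 2 and 3 had 3439, 2593 and 6469 CPM; 8 of 16 fell, beside 5.32% of all tested genes. Melanoma and pigment cell genes summed to 732, 2678 and 1728 CPM for LNP-GFP, against 454, 507 and 1127 CPM for LNP-Gsdme; by edgeR 0 of 15 were called, 2 were lower at an unadjusted p below 0.05, and DESeq2 called 1 as fallen. Endothelial genes summed to 398 to 488 CPM against 291 to 390 CPM; by edgeR 0 of 12 were called, 5 were lower at an unadjusted p below 0.05, DESeq2 called 4 as fallen and limma-voom 1. T cell and NK cell genes had medians in the other direction, at log2 fold changes of 0.54 and 0.77. Of 16 T cell genes, edgeR, DESeq2 and limma-voom called 0, with 2 higher and 1 lower at an unadjusted p below 0.05 by edgeR. Of 11 NK cell genes, edgeR called 1 as risen, beside 6.30% of all tested genes, DESeq2 3 and limma-voom 2. By edgeR 5 of these 11 were higher and 0 lower at an unadjusted p below 0.05. In the fibroblast, melanoma and endothelial lists LNP-Gsdme 3 was the LNP-Gsdme library nearest to the controls. In the dendritic cell list it was the farthest. The part of these cells in the levels of Mki67, Cdc20 and the other mitotic genes was not tested.

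The 3 control libraries differed among themselves in most of these genes. LNP-GFP 1 was the highest control for 15 of 20 S phase genes and 14 of 22 mitotic genes, against 41.1% of all tested genes, and LNP-GFP 2 the lowest for 15 of 20 and 14 of 22, against 40.9%. The median log2 ratio of LNP-GFP 1 over LNP-GFP 2 was 0.45 for S phase genes and 0.32 for mitotic genes, beside 0.01 over all genes. The largest ratios were those of Prim1 (0.96), Pola1 (0.88), Mcm7 (0.77), Mcm5 (0.77) and Mcm6 (0.72), with Kif11 (0.72) and Top2a (0.70) highest among mitotic genes. At the other end, Ccnb1 (-0.50), Cdt1 (-0.22), Cdc20 (-0.19) and Bub1b (-0.16) were higher in LNP-GFP 2. These genes were picked after their values were seen. LNP-GFP 3 lay between the others for 15 of 20 S phase genes and 15 of 22 mitotic genes, beside 61.9% of all genes.

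Set against each control in turn, S phase genes therefore changed sides. The median log2 ratio of the LNP-Gsdme mean to LNP-GFP 1, 2 and 3 was -0.22, 0.23 and 0.02 for S phase genes and -0.36, 0.01 and -0.19 for mitotic genes, while it was within 0.01 of 0 over all genes for each control. Against LNP-GFP 2 alone, edgeR called Mcm4 (log2 fold change 0.53, adjusted p = 0.0441) and Mcm5 (0.57, adjusted p = 0.0388) as risen, with the single control assumed to vary like the LNP-Gsdme libraries. Neither was called against the other controls alone or in the full comparison. Mki67 was lower than each single control, at -0.74, -0.35 and -0.50, and Cdc20 at -0.48, -0.67 and -0.54, none of them called. Against each control alone 0 of the 22 mitotic genes were called as fallen, and no test was made of the group.

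**Figure D4:**
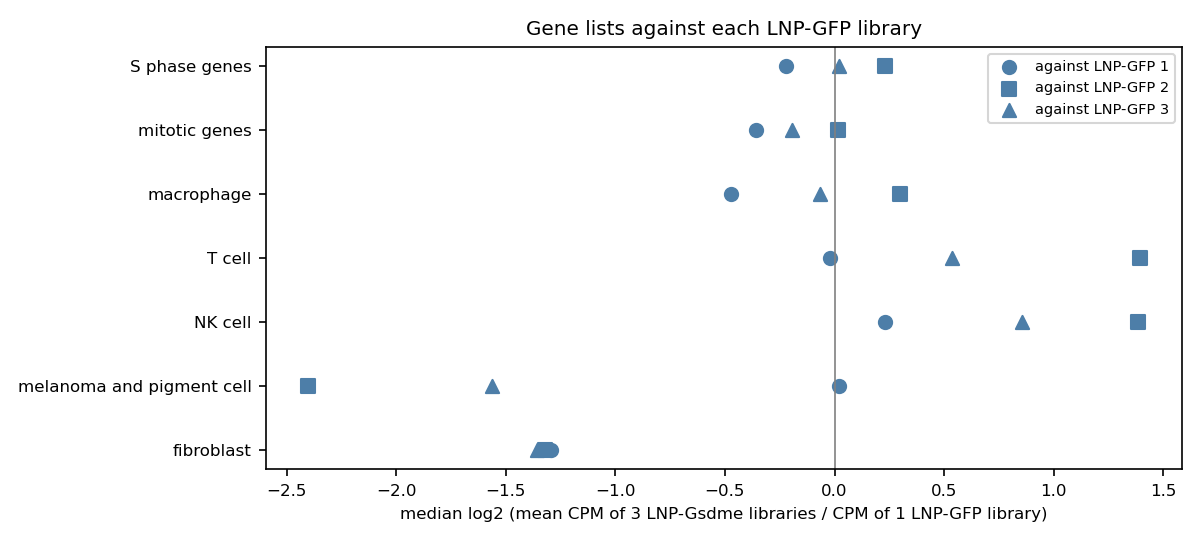
Median log2 ratio of the LNP-Gsdme mean CPM to the CPM of 1 LNP-GFP library (x axis), for S phase genes, mitotic genes and 5 marker lists; circles, squares and triangles are the ratios to LNP-GFP 1, 2 and 3. S phase genes stand at -0.22, 0.23 and 0.02, mitotic genes at -0.36, 0.01 and -0.19, and T cell, NK cell and macrophage markers have the same order of the 3 controls.

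Other marker lists separated the same controls. T cell genes summed to 848, 388 and 616 CPM in LNP-GFP 1, 2 and 3, against 715 to 900.4 CPM in LNP-Gsdme. NK cell genes summed to 465, 124 and 289 CPM in the controls and 474 to 614 CPM in LNP-Gsdme. Macrophage genes came to 6801, 4563 and 5927 CPM in the controls and 5110 to 5435 CPM in LNP-Gsdme. The controls had the same order in the T cell, NK cell and macrophage sums. Melanoma genes had the reverse order, with LNP-GFP 2 highest for 14 of 15. Erythroid genes summed to 15.2, 158 and 84.3 CPM in the controls and 5.74 to 60.1 CPM in LNP-Gsdme, with Gata1 at 0 counts in every library. Neutrophil genes came to 193, 450 and 315 CPM against 245 to 458 CPM, dendritic cell genes to 303, 471 and 384 CPM against 217 to 260 CPM, and B cell genes to at most 17.3 CPM, with Cr2 and Fcer2a at 0. The part of any of these cells in the spread of S phase genes between controls was not tested.

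Beyond the 42 genes, 10 further lists of the cell cycle held 235 genes, of which 234 were tested. Of these, 14 rose and 3 fell, beside 6.30% and 5.32% of all tested genes. The list with the most calls was that of CDK inhibitors, p53 targets and quiescence genes, where 5 of 20 rose (25%, beside 6.30% of all genes) and 1 fell, with a median log2 fold change of 0.16. Without LNP-GFP 3, LNP-Gsdme 1 or LNP-Gsdme 2, and against LNP-GFP 1 or LNP-GFP 3 alone, edgeR called 0 of the 234 genes.

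Several brakes of the cycle were higher in LNP-Gsdme, and others lower. Of the 20 genes DESeq2 called 6 as risen and 3 as fallen, and limma-voom 5 and 2. Over all 16010 tested genes DESeq2 called 1527 as risen and 1493 as fallen, and limma-voom 1056 and 893. Their summed level overlapped between the groups. Cdkn1a, the gene for p21, which binds and inhibits cyclin-CDK complexes (chr17:29309950-29319701, GRCm39), had 251, 302 and 365 CPM in LNP-GFP and 538, 499 and 481 CPM in LNP-Gsdme. It rose without overlap, with a log2 fold change of 0.73 ± 0.14 (SE, edgeR adjusted p = 0.0275). Btg2, an antiproliferative gene (chr1:134002908-134006858, GRCm39), rose from 74.4 ± 11.8 to 149 ± 17.5 CPM (SD, n = 3, edgeR adjusted p = 0.0138). Klf4, a transcription factor of monocytes, rose from 205 ± 21.8 to 293 ± 11.2 CPM (adjusted p = 0.0248). Cdkn1b, the gene for p27, another CDK inhibitor, rose by 0.40 ± 0.10 (adjusted p = 0.0467), and Foxo3, named after its values were seen, by 0.38 (0.0291). The list was not uniform: Cdkn1c, the gene for the related inhibitor p57, fell from 4.47 ± 0.194 to 2.02 ± 0.265 CPM, with a log2 fold change of -1.14 ± 0.17 (adjusted p = 0.0158).

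**Figure D5:**
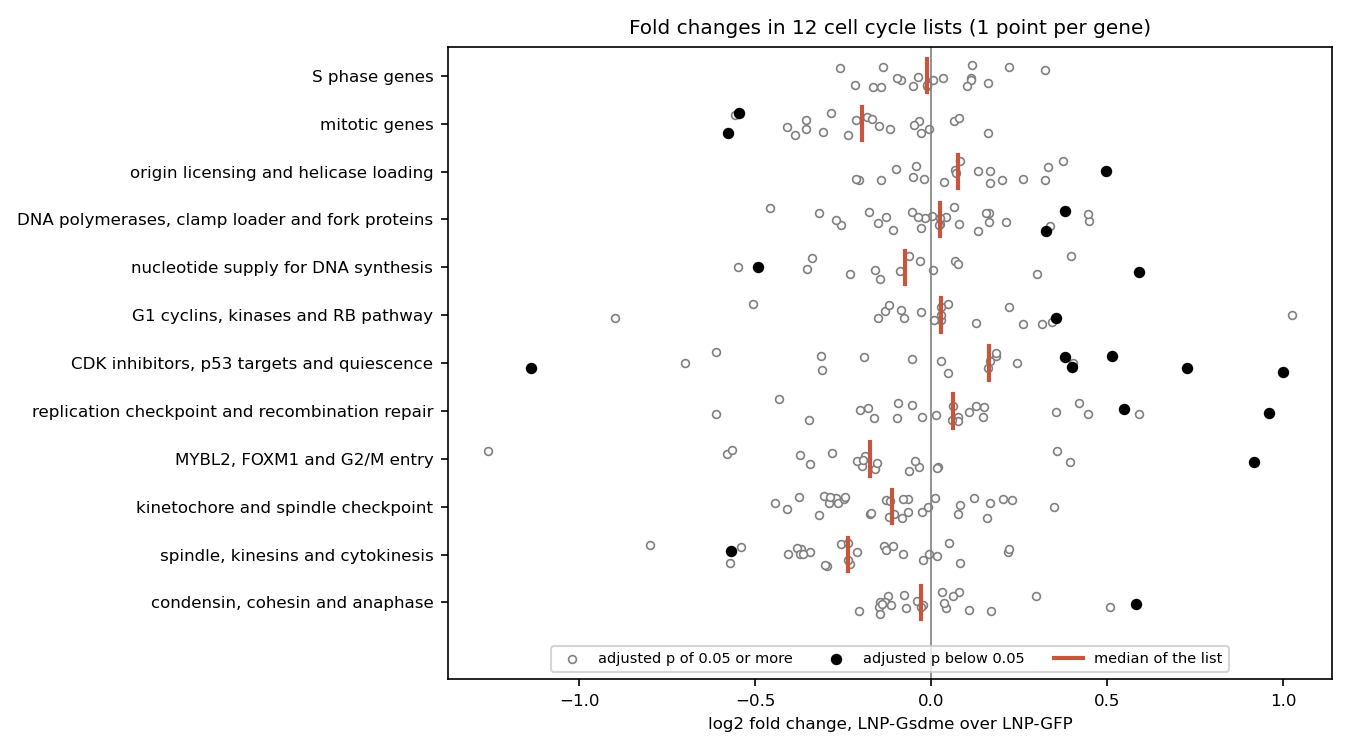
Log2 fold change of each tested gene (x axis, LNP-Gsdme over LNP-GFP) in 12 cell cycle lists, with filled points for an edgeR adjusted p below 0.05 and a red bar at each list's median. The CDK inhibitor list holds 5 filled points above 0 and 1 below, and the kinetochore list holds none.

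Of the upstream regulators of both waves, Ccnd1, Ccnd2, Myc, Foxm1 and Mybl2 did not pass edgeR's test. Ccnd1, the cyclin that starts G1 with CDK4 and CDK6, had 157, 68.7 and 113 CPM in LNP-GFP and 221, 249 and 219 CPM in LNP-Gsdme. The groups did not overlap, but the controls were spread widely, and the log2 fold change of 1.03 ± 0.28 had an edgeR adjusted p of 0.0610. It passed by DESeq2 (adjusted p = 0.00237), by limma-voom (0.0491), without LNP-GFP 1 (0.0199) and against LNP-GFP 2 alone (0.0186). Ccnd2 had a log2 fold change of 0.26 (adjusted p = 0.0927) and Myc one of -0.12 (0.616). In this list of G1 genes, 1 of 20 rose, E2f4, a mostly repressive E2F (0.36, adjusted p = 0.0486). Foxm1, the activator of the mitotic wave, had 19.8, 27.7 and 15.0 CPM in LNP-GFP and 11.3, 5.18 and 9.59 CPM in LNP-Gsdme. All controls were above all LNP-Gsdme libraries, with a log2 fold change of -1.26 ± 0.33 that did not pass by edgeR (adjusted p = 0.0582) and passed by DESeq2 (adjusted p = 0.00260). Mybl2, the gene for B-MYB, had one of -0.20 (0.477), and in that list of 20 genes the median was -0.17 and 1 rose, Lin54, a DNA-binding subunit of MuvB (0.92 ± 0.22, adjusted p = 0.0463).

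Other replication lists had medians close to 0, and 5 to 8% of each list rose, near the 6.30% of all tested genes. Of 20 licensing genes 1 rose, Mcmbp, which binds MCM proteins (0.50, edgeR adjusted p = 0.0295), with a list median of 0.08. Of 30 polymerase and fork genes 2 rose, the polymerase delta subunit Pold3 (0.38, 0.0376) and the clamp loader subunit Rfc1 (0.33, 0.0480), with a median of 0.02. Nucleotide supply had 1 of 16 up, the salvage kinase Dck (0.59, 0.0216), and 1 down, the one-carbon enzyme Shmt2 (-0.49, 0.0353). In the checkpoint and repair list 2 of 25 rose, Fanca of the Fanconi anaemia pathway (0.96 ± 0.12, 0.00995) and Rmi1, a partner of the BLM helicase (0.55, 0.0441).

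Other mitotic lists had medians below 0, and at most 3.57% of a list fell, beside 5.32% of all tested genes. Of 28 spindle and cytokinesis genes 1 fell, Ckap2l, a spindle protein (-0.57 ± 0.14, edgeR adjusted p = 0.0469), and the median was -0.24. limma-voom called none of these 28 and DESeq2 called 2 as fallen, beside 1493 of all 16010 genes. Of 32 kinetochore genes edgeR, DESeq2 and limma-voom called 0, and 0 were below an unadjusted p of 0.05; the median was -0.11, and Sgo2a, which protects cohesin at centromeres, had the smallest p (-0.30, adjusted p = 0.190). In the condensin and cohesin list 1 of 23 rose, Ncapg2 of condensin II (0.58, adjusted p = 0.0476), with a median of -0.03. The summed further mitotic lists (kinetochore, spindle and G2/M entry), as a percent of the summed further replication lists (licensing and polymerases), were 95.4, 109 and 102% in LNP-GFP and 92.6, 90.8 and 93.0% in LNP-Gsdme. These groups did not overlap either, by a smaller margin than in the 42 genes, but the summed mitotic lists did not move alike. Spindle genes summed to 385, 357 and 377 CPM in LNP-GFP and 310, 307 and 349 CPM in LNP-Gsdme. The G2/M entry sum went the other way, at 413, 392 and 397 CPM against 444, 431 and 414 CPM. Most of its genes did not, as 15 of 20 had a log2 fold change below 0. Kinetochore sums overlapped, and the licensing and polymerase sums were lowest in LNP-GFP 2. Polymerase genes had 928, 771 and 853 CPM against 914, 914 and 910 CPM.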

How the data were processed

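RNA from sorted tumour monocytes was made into paired-end TruSeq libraries, per the labels' protocols, and groups were taken from the treatment label. The authors deposited 1 table with raw counts and FPKM for 6 libraries, per the file headers. Per the submitters' processing notes the genome was GRCm39; the sources used here name no aligner, counting tool, strand setting or annotation. The deposited FPKM are those counts scaled to gene length and depth, and served only to order genes. Unstranded counting could mix overlapping genes: 17 of the 42 genes overlap another gene, and for 7 (Mcm7, Gins2, Cdc45, Ccne2, Ccna2, Cdc20 and Nusap1) a partner reaches 10% of their counts.

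The deposited counts were tested in R 4.3.3 with edgeR 4.0.16 (filterByExpr, TMM, robust quasi-likelihood fit, Benjamini-Hochberg adjustment over 16010 genes, calls at an adjusted p below 0.05). CPM use TMM-scaled totals. The SE of a log2 fold change is its size divided by the square root of the quasi-likelihood F. The test was checked on simulated data. Libraries held 15991826 to 22932095 counts, so a gene at 1 CPM has 16.0 to 22.9 counts. The numbers in the titles were not used to pair the samples in the main fit. Deviations of libraries with the same number correlated at 0.22, -0.27 and 0.03. With 3 libraries per group, these values cannot show whether the libraries were collected as pairs.

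The 42 members and all lists were chosen with earlier results of these data known, and no set test was made. Called members, the 6 smallest p and the 3 highest FPKM of each group were given in every library, and of each further list the 3 called genes with the smallest p (or the 1 smallest p) with Cdkn1a, Cdkn1b, Ccnd1, Ccnd2, Myc, Mybl2 and Foxm1. Library values of Ccnb1, Plk1 and Bub1b were added after they were seen. Mycn was not tested, and H2afx was matched as H2ax through a RefSeq synonym. The alternatives were RLE, upper-quartile and unscaled library sizes, DESeq2 1.42.0, limma-voom (limma 3.58.1), a non-robust fit, no filter, a stricter filter, a replicate block, each library left out and each LNP-GFP library alone.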

Additional observations from a re-analysis of the deposited data

How the results depend on the processing

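Of 756 fold changes of the 42 genes under the 18 alternatives, 731 kept their side of the threshold, 19 calls of Mki67 or Cdc20 were lost, 6 calls were gained (Cdt1, Mcm4, Mcm5, Bub1, Plk1 and Ccnb1) and 0 called values reversed; 27 genes that were not called had a fold change of the other sign under at least 1. The cause was not tested. Over all genes, 1008 rose and 851 fell; DESeq2 gave 1527 and 1493, with 1 S phase gene up and 9 further cell cycle genes down. With upper-quartile factors 9 further cell cycle genes rose and 7 fell, against 14 and 3. By library size only, 0 mitotic genes fell; with no filter 1 fell and 7 further genes rose. Whether the numbers pair the samples is not known, and not every library correlated best with its own number. With the replicate number as a block, 103 genes rose and 52 fell, with 0 mitotic genes down and 0 and 0 further genes. Leaving out each library gave 64 to 1625 risen and 24 to 1216 fallen genes, 0 to 5 fallen mitotic genes, 0 to 20 risen and 0 to 8 fallen further genes, S phase medians of -0.11 to 0.13, mitotic medians of -0.33 to -0.054 and a difference of -0.22 to -0.17. The lowest counts, 64 and 24, came without LNP-GFP 3. Without LNP-Gsdme 1 the counts were 107 and 46, without LNP-Gsdme 2 119 and 68, without LNP-GFP 2 594 and 353, and without LNP-GFP 1 1625 and 1216.

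Against LNP-GFP 1 alone 8 genes rose and 4 fell, 0 of them mitotic, with 0 and 0 further genes and medians of -0.22 (S phase) and -0.35 (mitotic). Against LNP-GFP 2 alone 957 rose and 499 fell, with 2 S phase genes up, 0 mitotic genes down, 15 further genes up and 3 down, and medians of 0.24 and 0.026. Against LNP-GFP 3 alone 34 rose and 16 fell, with 0 mitotic genes down and 0 and 0 further genes. A lone control is assumed to vary like the LNP-Gsdme libraries. Depth limits the least abundant members, which had as few as 54 counts in a library.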
